A study of Mus musculus with 75 samples.

Results

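The genes described here are 10 markers by which fibroblasts and their subsets are recognised, namely Pdgfra, Pdgfrb, Dpp4, Pi16, Thy1, Ly6a, Cd34, Vim, S100a4 and Fap. They were chosen by name and not by their values, and all 10 were found among the 24984 genes of each RNA-seq count table. Their mRNA was followed in 44 RNA-seq libraries and the accessibility of their promoters in 13 ATAC-seq samples of skin fibroblasts from C57BL/6 mice. The passage series used untreated cells at P1, P3, P5 and P7, the last of these being the senescent stage of the study, with 4 RNA-seq libraries per passage and 4 (P1) or 3 (P3, P5 and P7) ATAC-seq samples. According to the methods, the cells of the passage series came from female mice of 2 months.

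The intervention experiments used RNA-seq only, each with its own control. E2f4 was overexpressed from a lentiviral, doxycycline-inducible vector in P4 cells, before senescence (2 libraries, against 2 control libraries). It was knocked down in proliferating P3 cells with the short hairpin sh1 (3 libraries, against 3 with a non-targeting hairpin, nt). Tead1 was knocked down with sh3 or sh4 (3 libraries each, against 3 nt) and Atf3 with sh5 or sh6 (3 libraries each, against 3 nt). The passages of the E2f4 experiments are those the paper states, and it describes the cells of the Atf3 knockdown as pre-senescent. The labels of the intervention libraries give no passage. The methods name newborn and 2-month-old mice as sources for the intervention cells, and the labels do not say which animals were used for which library. Nothing in the labels says that replicates were separate animals or cultures, so p-values measure the spread between these libraries, which may be technical.

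Fibroblasts are the mesenchymal cells that build the dermal matrix, and no single gene defines them. The PDGF receptors bind platelet-derived growth factors and are found on most dermal fibroblasts, the beta receptor also on pericytes. Dpp4, Pi16, Cd34 and Ly6a mark a progenitor-like population of the fascia and lower dermis, Thy1 (CD90) is a surface glycoprotein of many mesenchymal cells, and Vim, S100a4 and Fap are used as general or activation markers of fibroblasts.

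On GRCm38.p6, the assembly of mm10, Pdgfra lies at chr5:75151322-75198206 on the plus strand. Dpp4 (chr2:62330073-62412315) and Fap (chr2:62500936-62575509), which code for related membrane peptidases, are neighbours on the minus strand of chromosome 2. Thy1 (chr9:44043384-44048579), Cd34 (chr1:194938821-194961292), Vim (chr2:13574311-13582826), S100a4 (chr3:90603770-90606045) and Pi16 (chr17:29318796-29328903) are on plus strands, and Ly6a (chr15:74994877-74998031) is on a minus strand. The exons of Pi16 share 502 bases with Gm46603 and those of Cd34 share 148 bases with Gm16897, both on the opposite strand, and since reads were counted without strand these could not be told apart.

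Promoter sequences from RefSeq (GRCm38.p6) were examined for 6 of the 10 genes (Pdgfra, Dpp4, Pi16, Cd34, Vim and S100a4). Those of Dpp4 and Cd34 are shown because these genes had the largest falls from P1 to P7 in both mRNA and promoter peak strength. Pdgfra was lower in both by less and is not shown. Those of Vim and S100a4 are shown because these were the most abundant members, with promoter peaks in every sample. Each is the 250 bases before the transcription start, 5′ to 3′ on the strand of the gene, in lower case, with every match to the motifs searched in capitals.
Dpp4, chr2:62412232-62412481, minus strand: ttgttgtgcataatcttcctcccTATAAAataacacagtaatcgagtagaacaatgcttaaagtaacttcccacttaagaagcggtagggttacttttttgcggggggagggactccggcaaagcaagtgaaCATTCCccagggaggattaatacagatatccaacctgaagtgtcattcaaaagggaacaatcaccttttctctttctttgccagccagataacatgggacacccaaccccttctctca
Cd34, chr1:194938571-194938820, plus strand: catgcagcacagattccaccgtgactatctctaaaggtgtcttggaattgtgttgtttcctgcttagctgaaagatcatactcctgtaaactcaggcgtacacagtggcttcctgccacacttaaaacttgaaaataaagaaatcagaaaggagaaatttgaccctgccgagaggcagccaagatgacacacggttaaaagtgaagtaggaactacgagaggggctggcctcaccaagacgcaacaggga
Vim, chr2:13574061-13574310, plus strand: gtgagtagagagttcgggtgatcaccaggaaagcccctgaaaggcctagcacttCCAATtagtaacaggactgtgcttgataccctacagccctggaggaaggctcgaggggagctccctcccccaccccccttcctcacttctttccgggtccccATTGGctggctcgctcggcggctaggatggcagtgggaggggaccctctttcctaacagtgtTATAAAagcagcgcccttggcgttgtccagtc
S100a4, chr3:90603520-90603769, plus strand: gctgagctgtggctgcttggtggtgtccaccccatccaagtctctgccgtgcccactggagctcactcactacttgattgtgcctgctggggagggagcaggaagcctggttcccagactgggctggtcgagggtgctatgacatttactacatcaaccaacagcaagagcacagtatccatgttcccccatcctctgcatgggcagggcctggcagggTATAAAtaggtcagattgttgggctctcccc
The motifs searched on both strands were the TATA box (TATAAA), the CCAAT box (CCAAT), the GC box (GGGCGG), the TEAD core (GGAATG), the AP-1 site (TGANTCA), the cAMP response element (TGACGTCA) and 4 forms of the E2F site (TTTCCCGC, TTTGGCGC, TTTCGCGC and TTTGCCGC). No match overlapped another in these windows. Vim held TATAAA 32 to 27 bases before the start and S100a4 31 to 26 bases before it, the usual place of a TATA box, whereas the TATAAA of Dpp4 lay 227 to 222 bases before the start. Of all 32851 promoters of this length 12.4% held TATAAA. Vim also held CCAAT 196 to 192 bases before the start and its reverse complement 94 to 90 bases before it, against 33.8% of all promoters with a CCAAT box. In Dpp4 the reverse complement of the TEAD core lay 118 to 113 bases before the start, a motif present in 12.6% of all promoters. None of the letters searched was in the Cd34 window. The GC content was 43.6% for Dpp4, 46.4% for Cd34, 58.4% for Vim and 57.2% for S100a4, with a median of 52.4% over all promoters. A match is a string of letters and was not tested for binding.

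Total counts per library ranged from 9147324 to 27552949 reads. Values of single genes are CPM, the reads of a gene scaled to a fixed library size, after TMM scaling, which sets the libraries of one experiment to a common level. Differences are log2 fold changes of edgeR's quasi-likelihood test with their standard errors, p-values were adjusted by the Benjamini-Hochberg method over all genes tested in the experiment, and a gene passed the test with an adjusted p under 0.05 and was called if the fold change also exceeded 2. E2f4 mRNA was higher in the overexpressing libraries (log2 fold change 4.79, adjusted p = 7.07e-08) and lower with sh1 (-1.5, adjusted p = 2.14e-07), and Tead1 was lower with sh3 (-0.96, adjusted p = 4.63e-17) and sh4 (-0.78, adjusted p = 8.58e-15). Atf3 was near 3 CPM even with the nt hairpin (2.98 CPM) and differed by -1.14 with sh5 (adjusted p = 0.0447) and by -0.79 with sh6 (adjusted p = 0.114). Every library of either hairpin was below every nt library, but at this low level the change with sh6 did not pass the test. The paper also examined the Atf3 knockdown by RT-qPCR and immunoblot.

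The P1 libraries also held mRNA of other skin cell types. The summed level of 12 macrophage markers was 352 to 547 CPM at P1, 48.3 to 66.0 CPM at P3, 20.7 to 31.5 CPM at P5 and 34.0 to 55.1 CPM at P7. For 9 endothelial markers it was 181 to 207 CPM at P1, 48.3 to 60.1 CPM at P3 and 12.4 to 15.96 CPM at P7, and for 11 keratinocyte markers 72.3 to 438 CPM, 3.09 to 6.37 CPM and 9.60 to 13.5 CPM. Without the markers that passed the filter on low counts only through P1, 10 of 10 tested macrophage markers and 7 of 8 endothelial markers, among them Pecam1 and Cdh5, fell from P1 to P3, against 17.5% of all genes past the test and lower. Markers of skeletal muscle (10 genes, 149 to 226 CPM at P1 and 56.6 to 61.9 CPM at P3) and adipocytes (7 genes, 108 to 136 CPM and 19.4 to 27.1 CPM) were lower too, whereas 8 Schwann cell and melanocyte markers went from 36.1 to 45.3 CPM at P1 to 62.3 to 83.7 CPM at P3 and 8 pericyte and smooth muscle markers from 175 to 295 CPM to 210 to 388 CPM. At P7 Krt14, Krt17 and Krt1 had no read, and Ptprc and Pecam1 were at no more than 0.305 and 0.594 CPM. The 11 keratinocyte markers together were nonetheless higher at P7 than at P3 in every library, by the sums given above. The macrophage markers did not all stay low, however, since Csf1r was at 20.5 ± 2.95 CPM at P1, 8.84 ± 0.558 CPM at P3, 7.94 ± 1.19 CPM at P5 and 21.8 ± 2.79 CPM at P7 (SD, n = 4), and Lyz2 was still at 16.7 ± 6.67 CPM at P7. The part of these cells in any difference from P1 was not tested, and in bulk RNA fewer cells of a type and less RNA per cell cannot be told apart. The comparisons among P3, P5 and P7 do not involve the P1 libraries, although the endothelial marker Pecam1 fell further between P3 and P7 (-4.35 ± 0.45). The summed macrophage markers were higher at P7 than at P5 in every library, and the summed keratinocyte markers higher at P7 than at P3. Fibroblast genes dominated at each passage, with 15 matrix genes at 39620 to 42650 CPM in total at P1 and 70350 to 83700 CPM at P7.

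To compare levels between genes, CPM were divided by the exon length in kb. At P1 the order was Vim (1845 CPM per kb), S100a4 (1442), Thy1 (439), Pdgfrb (234), Ly6a (128), Pdgfra (67.0), Cd34 (4.79), Fap (1.78), Dpp4 (0.358) and Pi16 (0.204), all in CPM per kb, and only the last pair overlapped between neighbours. Vim and S100a4 were thus the most abundant at P1, and Dpp4 and Pi16, the least abundant, were supported by 195 and 32 reads in all 4 libraries. At P7 Vim (2330 CPM per kb), S100a4 (1567) and Thy1 (1016) still led, but Ly6a (478) stood above Pdgfrb (178), and Fap (1.43) above Cd34 (0.568 CPM per kb). Pdgfrb and Ly6a overlapped at P3, where the order turned, and S100a4 and Thy1 overlapped at P5.

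With passaging, the fibroblast markers did not move as a block. Between P1 and P7 Thy1, Ly6a and Vim rose, Pdgfra, Pdgfrb, Dpp4 and Cd34 fell, S100a4 and Fap did not pass the test, and Pi16 had too few reads to be tested. Dpp4 passed the filter on low counts only through P1, where it was high, and is left out of the counts that follow. Of the other 8 tested members 6 passed, against 62.5% of all 13442 genes tested, and 4 were called, against 21.4% of all genes. Of those called 2 were higher (8.10% of all genes) and 2 lower (13.3%). The median log2 fold change of these 8 members was -0.09, against -0.01 for all genes. All passage comparisons come from 1 fit and share groups, so they are not independent of each other.

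**Figure D1:**
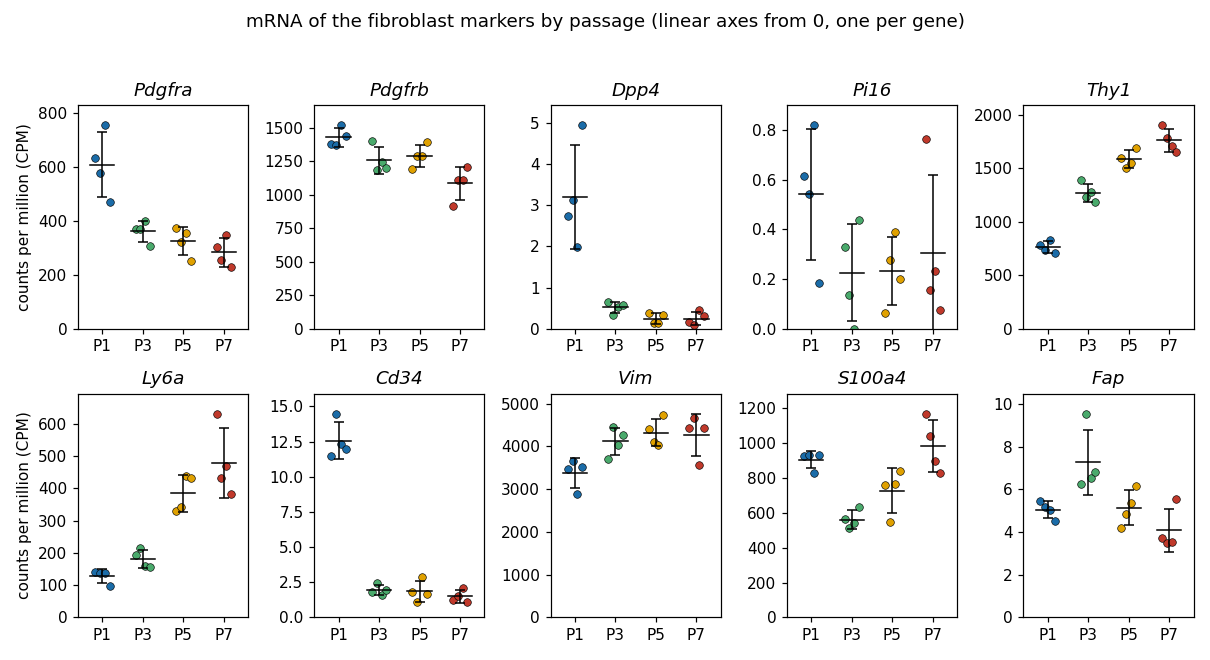
mRNA of the 10 markers in CPM (linear axis from 0, own scale per gene) at P1, P3, P5 and P7, with 1 point per library (n = 4), a bar at the mean and an error bar of 1 SD. Dpp4 and Cd34 drop between P1 and P3 and stay low, Thy1 and Ly6a climb over the passages, and S100a4 dips at P3 and is back near its P1 level at P7.

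Cd34, a sialomucin of progenitor and endothelial cells, fell the most among the members with ample reads. Its level was 11.5, 14.5, 12.3 and 12.0 CPM at P1, 1.77, 2.47, 1.61 and 1.97 CPM at P3, 1.81, 1.11, 2.84 and 1.65 CPM at P5 and 1.22, 1.54, 2.07 and 1.11 CPM at P7. Every library from P3 on lay far below every P1 library, and the later passages overlapped each other. The log2 fold change was -2.68 ± 0.23 from P1 to P3 (adjusted p = 3.68e-08) and -3.07 ± 0.24 from P1 to P7 (adjusted p = 1.37e-09), whereas it was -0.39 ± 0.27 from P3 to P7 (adjusted p = 0.232). Since endothelial cells also express Cd34, its fall stands beside that of the endothelial markers given above.

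Dpp4 (CD26), a peptidase of fascia and papillary fibroblasts, behaved likewise at a lower level. It was at 2.74, 3.12, 1.98 and 4.95 CPM at P1, at 0.657, 0.343, 0.516 and 0.585 CPM at P3, and at 0.153, 0.0771, 0.461 and 0.297 CPM at P7. All P3 and P7 libraries were below all P1 libraries, with 195 reads in total at P1, 31 at P3 and 13 at P7. The ratio of the summed levels was 0.162 for P3 against P1 (95% exact interval 0.107 to 0.238) and 0.0763 for P7 against P1 (0.0399 to 0.134), intervals that cover counting error only. The fitted changes were -2.59 ± 0.37 (adjusted p = 2.33e-05) and -3.65 ± 0.43 (adjusted p = 4.62e-07). Since it passed the filter only through the P1 libraries, among genes retained it had to be lower later. Its change from P3 to P7 was -1.06 ± 0.53 (adjusted p = 0.104) and passed the test only without P7 replicate 3 (-1.52, adjusted p = 0.0458).

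Pi16, a peptidase inhibitor that marks fascia fibroblasts together with Dpp4, was close to the detection limit. Its levels were 0.616, 0.543, 0.820 and 0.186 CPM at P1 and 0.763, 0.154, 0.231 and 0.0742 CPM at P7, so the groups overlapped. The summed level at P7 was 0.572 of that at P1 (95% exact interval 0.293 to 1.07, 16 against 32 reads), and a difference was not detectable at this depth.

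Other genes of the Pi16 and Dpp4 progenitor list changed in both directions. Between P1 and P7, 6 of 13 tested genes of that list rose and 4 fell, with a median log2 fold change of 0.38. Of all genes 30.5% were past the test and higher in this comparison and 31.9% past it and lower, and these shares are the background of each list given for it. Ly6c1 (2.08 ± 0.12), the complement regulator Cd55 (1.98 ± 0.23) and Cd248 (endosialin, 1.83 ± 0.13) were among the highest, and Limch1 (-1.93 ± 0.27) was lower. In the list of papillary (upper) dermis 6 of 8 tested genes fell and none rose, with a median of -1.78, beside the Wnt agonist Rspo1 (-5.21 ± 0.52), which passed the filter on low counts only through P1. The largest changes were in the collagen Col23a1 (-3.35 ± 0.22), and the Wnt target genes Apcdd1 (-2.31 ± 0.29) and Axin2 (-2.14 ± 0.25). The reticular and hypodermal list had 2 of 5 genes up, Plac8 (1.22 ± 0.25) and the matrix Gla protein Mgp (1.19 ± 0.29), and 2 down.

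Both PDGF receptors fell over the whole course. Pdgfra was at 635, 578, 756 and 469.5 CPM at P1, at 370.3, 371.5, 399 and 306 CPM at P3, and at 303, 254, 349.6 and 229 CPM at P7. The P1 libraries were all above the later ones, and most of the difference was present by P3 (-0.75 ± 0.15, adjusted p = 0.000654, against -1.10 ± 0.15 with adjusted p = 3.1e-06 at P7). From P3 to P7 the change was -0.35 ± 0.15 (adjusted p = 0.0565), and it passed the test without P3 replicate 4 (-0.41, adjusted p = 0.0391) or P7 replicate 3 (-0.45, adjusted p = 0.0209). Pdgfrb (chr18:61045127-61085067, plus strand), at 1383, 1371, 1520 and 1441 CPM at P1 and 913.5, 1112, 1111 and 1210 CPM at P7, also had no overlap between these passages. Its fall was smaller (-0.40 ± 0.09, adjusted p = 0.000764), and neither step on the way passed the test, with -0.18 ± 0.09 from P1 to P3 (adjusted p = 0.122) and -0.21 ± 0.09 from P3 to P7 (adjusted p = 0.0542, but 0.024 with a change of -0.27 without P7 replicate 4).

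Among the 4 ligands of these receptors, Pdgfd (1.73 ± 0.15) and Pdgfa (1.18 ± 0.17) rose from P1 to P7 while Pdgfb fell (-2.88 ± 0.43). Pdgfb is the ligand that endothelial cells release to recruit pericytes. Of the pericyte and smooth muscle list, in which cells the beta receptor is also high, 2 of 5 tested genes rose (among them Mcam, 1.17 ± 0.27) and 1 fell, the proteoglycan Cspg4 (-1.67 ± 0.24). The potassium channel subunit Abcc9 (-3.95 ± 0.81) was lower too but was tested only because of its P1 level.

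Thy1 and Ly6a, which both code for proteins held to the membrane by a GPI anchor, rose. Ly6a (Sca-1) was at 142, 137, 137 and 96.6 CPM at P1, 193, 216, 158 and 157 CPM at P3, 329.8, 342, 438 and 431 CPM at P5 and 631, 431.5, 469.7 and 384 CPM at P7. Each passage up to P5 lay wholly above the one before, and P5 and P7 overlapped. Its log2 fold change was 1.90 ± 0.16 from P1 to P7 (adjusted p = 4.05e-09), with 1.09 ± 0.15 of it between P3 and P5 (adjusted p = 6.09e-05) and 1.41 ± 0.16 between P3 and P7 (adjusted p = 6.03e-07). The first step, from P1 to P3 (0.50 ± 0.15, adjusted p = 0.0181), did not pass the test without P1 replicate 4 (0.38, adjusted p = 0.0658) or P3 replicate 2 (0.40, adjusted p = 0.0733).

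Thy1 stood at 780, 732, 829.5 and 707 CPM at P1, at 1386, 1236, 1277 and 1186 CPM at P3, at 1600, 1504, 1551 and 1692 CPM at P5 and at 1903, 1787, 1704 and 1656 CPM at P7. No library of P3 overlapped with P1 and none of P5 with P3, whereas P7 overlapped with P5. The change was 0.74 ± 0.08 from P1 to P3 (adjusted p = 8.3e-07), 0.32 ± 0.08 from P3 to P5 (adjusted p = 0.00602) and 1.21 ± 0.08 over the whole course (adjusted p = 1.71e-10). The other measured genes of the Ly6 family were Ly6c1, which rose as given above, and 1 gene that did not pass the test.

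Vim, the intermediate filament of mesenchymal cells, rose slightly. It was at 3466, 3666, 2882 and 3521 CPM at P1 and 4430, 4675, 3565 and 4427 CPM at P7, and the groups overlapped through P7 replicate 3. The change from P1 to P7 was 0.34 ± 0.10 (adjusted p = 0.00654). From P1 to P3 it was 0.28 ± 0.10 (adjusted p = 0.035), which did not pass when any of P1 replicates 1, 3 and 4 or P3 replicates 2, 3 and 4 was left out (0.21 to 0.30, adjusted p = 0.0512 to 0.137).

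S100a4 (FSP1), a calcium-binding protein, was the member with a dip. Its level was 924, 930.3, 829 and 932 CPM at P1, 563, 511, 539 and 632 CPM at P3, 759.5, 546, 762 and 841 CPM at P5 and 1166, 1041, 898 and 827 CPM at P7. The P3 libraries were below all P1 and all P7 libraries, while P1 and P7 overlapped (0.12 ± 0.12, adjusted p = 0.399). It fell from P1 to P3 (-0.69 ± 0.12, adjusted p = 0.00023) and rose from P3 to P7 (0.81 ± 0.12, adjusted p = 2.25e-05). The single steps from P3 to P5 (0.37, adjusted p = 0.0268) and P5 to P7 (0.43, adjusted p = 0.018) depended on single libraries. The former did not pass without P3 replicate 2 or 3 or without P5 replicate 1, 3 or 4 (0.30 to 0.36, adjusted p = 0.0541 to 0.0975), the latter without P5 replicate 2 (0.32, adjusted p = 0.0591) or P7 replicate 1 (0.34, adjusted p = 0.0603). In the rest of the S100 family 4 of 7 tested genes rose from P1 to P7 and none fell, S100a6 the most (1.06 ± 0.13).

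Fap, the membrane peptidase of activated fibroblasts, peaked at P3 at a low level. It was at 5.48, 5.16, 5.05 and 4.51 CPM at P1, 6.24, 9.53, 6.51 and 6.80 CPM at P3, 4.20, 4.84, 5.36 and 6.15 CPM at P5 and 3.74, 3.47, 3.53 and 5.56 CPM at P7. The P3 libraries were above all others, and P1 overlapped with P7 (-0.31 ± 0.19, adjusted p = 0.172, and -0.49 with adjusted p = 0.0331 without P7 replicate 4). The fall from P3 to P7 was -0.83 ± 0.19 (adjusted p = 0.00115). The rise from P1 to P3 (0.52 ± 0.18, adjusted p = 0.032) did not pass without P1 replicate 2, 3 or 4 or P3 replicate 2 (0.37 to 0.53, adjusted p = 0.059 to 0.146), and the fall from P3 to P5 (-0.50 ± 0.18, adjusted p = 0.0453) did not pass without P3 replicate 2, 3 or 4 or P5 replicate 1, 2 or 3 (-0.55 to -0.34, adjusted p = 0.0573 to 0.181).

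Counted over the members, more passed the test from P1 to P3 than in either later step, though Ly6a, Vim and Fap did not pass without certain single libraries. From P1 to P3, again without Dpp4, 4 members rose and 3 fell of 8 tested, against 33.4% of all genes past the test, and 1, Cd34, was called lower, against 6.58% of all genes called lower. From P3 to P5 3 rose (Thy1, Ly6a and S100a4) and 1 fell (Fap), against 28.7% of all genes. From P5 to P7 only S100a4 passed, against 16.8%. From P3 to P7 Thy1 (0.47 ± 0.08, adjusted p = 7.45e-05), Ly6a and S100a4 rose and Fap fell, which made 4 of 9 members against 51.3% of all genes.

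Matrix and myofibroblast genes in the same libraries changed too. Of the 15 matrix genes 9 rose from P1 to P7 (30.5% of all genes) and 4 fell (31.9%), with fibronectin Fn1 (2.35 ± 0.15) and the collagen Col3a1 (2.00 ± 0.14) the highest and the proteoglycans lumican (Lum, -1.96 ± 0.26) and decorin (Dcn, -1.81 ± 0.19) the lowest. Of 7 myofibroblast genes 5 rose and none fell, led by the connective tissue growth factor Ccn2 (1.82 ± 0.21), the actin-binding Tagln (1.79 ± 0.15) and periostin (Postn, 1.66 ± 0.22). The median was 0.42 for the matrix list and 0.63 for the myofibroblast list.

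ATAC-seq, which marks DNA open to a transposase, was compared at the promoters of the members, taken as 1000 bases on each side of every annotated start. The peak lists hold no read counts, so the depth is unknown, and the strength of the strongest promoter peak is given as its percentile among all peaks of the same sample (0 where no peak was listed). All members but Pi16 had a promoter peak in all 13 samples. Pi16 had a peak in 3 of 4 P1 samples, 3 of 3 at P3 and at P5 and 0 of 3 at P7. Strengths of Pdgfrb (mean 96.5 at P1), Vim (96.0), Ly6a (92.7) and S100a4 (89.8) were above the median of the 15726 promoters with a peak in every P1 sample (88.4), and those of Fap (82.9), Thy1 (81.9), Pdgfra (72.5), Dpp4 (64.0), Cd34 (57.1) and Pi16 (18.8 percentile) were below it.

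**Figure D2:**
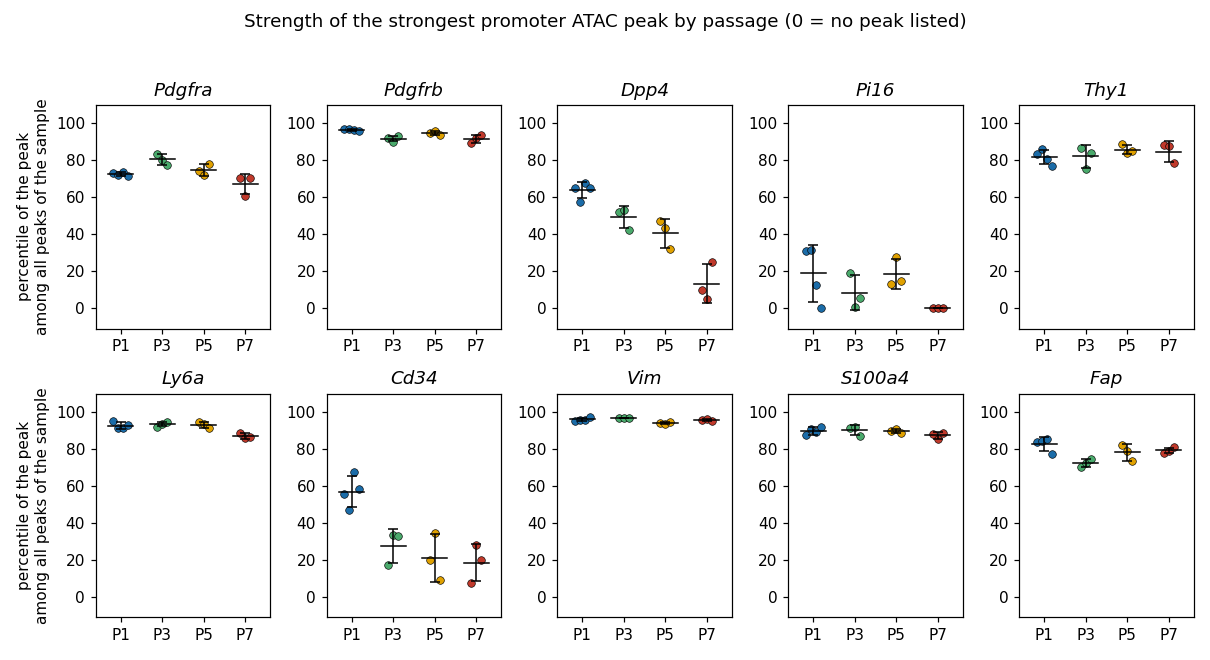
Strength of the strongest ATAC-seq peak at the promoter of each marker, as a percentile among the peaks of the sample (0 where no peak was listed), with 1 point per sample (n = 4 at P1, n = 3 at P3, P5 and P7), a bar at the mean and an error bar of 1 SD. Dpp4 and Cd34 decline from above 45 to below 30, Pi16 has no peak at P7, and the strong peaks of Vim, S100a4 and Thy1 stay near their P1 strength.

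At Dpp4, whose mRNA was lower from P3 on, the strength was 65.1, 57.7, 67.9 and 65.1 at P1, 52.2, 53.0 and 42.3 at P3, 47.0, 43.2 and 31.9 at P5 and 10.1, 5.01 and 25.1 at P7. Every sample of P3, P5 and P7 was below every P1 sample, and the P7 samples were below all others. The mean difference of P7 against P1 was -50.6 percentile points (exact permutation p = 0.0286, two-sided, the smallest p that 35 splits of 4 and 3 samples can give). The peaks covered 919 ± 37.9 bases of the promoter at P1 (SD, n = 4) and 323 ± 109 bases at P7 (SD, n = 3). The covered length of 5 members was shorter in every P7 sample than in every P1 sample, against 39.2% of all promoters. Beside Dpp4 and Cd34 these were Thy1 (964 ± 100 bases at P1 and 695 ± 68 bases at P7), whose mRNA was higher at P7, S100a4 (1204 ± 54.5 and 907 ± 134 bases) and Fap (1170 ± 70.4 and 876 ± 44.1 bases), and after adjustment over all promoters none passed (adjusted p = 0.0898).

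At Cd34 the strength was 55.5, 47.0, 67.5 and 58.3 at P1, 17.2, 33.3 and 32.8 at P3, 20.1, 34.6 and 8.99 at P5 and 7.86, 28.0 and 20.2 at P7. The P1 samples were above all later ones, and the later passages overlapped, as they did for the mRNA. The difference of P7 against P1 was -38.4 percentile points (exact permutation p = 0.0286), and the covered length went from 1125 ± 177 bases at P1 to 352 ± 76.9 bases at P3 and 373 ± 61.8 bases at P7. The 250 bases before its start, printed above, held none of the motifs searched. Whether the ATAC-seq samples of P1 held other cell types was not tested.

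Pdgfra, Pdgfrb and Ly6a were lower at P7 in every sample as well, by -5.33, -4.84 and -5.59 percentile points (exact permutation p = 0.0286 each), while Ly6a mRNA was higher. The value of Ly6a rests on a peak that reaches only into the outer part of the window. With 500 bases on each side of the start a peak was met in 1 of 4 P1 samples and in none at P7 (means 23.8 and 0, exact permutation p = 1), so that the groups overlapped and 4 members were lower without overlap. Thus 5 of 10 members had P7 strengths below all P1 strengths, and none above, against 29.2% of 18070 promoters lower and 13.3% higher without overlap. After adjustment over all promoters none of the 5 passed (adjusted p = 0.0853), which is the smallest value this design gave. At P3, 4 members (Pdgfrb, Dpp4, Cd34 and Fap) were below all P1 samples and Pdgfra above them, against 21.3% of promoters lower and 4.79% higher, and at P5 Pdgfrb, Dpp4, Cd34 and Vim were below, against 22.1%. A weak peak has a lower percentile where more peaks are listed, and the P7 samples listed more peaks (200376 to 231558 after merging summits) than those of P1 (168982 to 186562). Ranked among promoters instead of among all peaks, 4 members stayed below all P1 samples at P7, namely Pdgfrb (-12.4), Dpp4 (-14.4), Ly6a (-10.0) and Cd34 (-9.86 percentile points), against 20.4% of promoters. With the same number of peaks taken from every sample 8 members were lower, against 41.3% of promoters. Ranked among promoters, Pdgfra was no longer lower (0.769 percentile points), nor was it at its outermost start alone (2.24). Of the 3 annotated starts of Pdgfra the downstream one, at 75156166, carried the strongest peak in each P1 sample (71.6 to 73.5). At P7 it did so only in replicate 3, and the outermost start carried the strongest peak in replicates 1 and 2. The difference of -5.33 thus compares different peaks. At the downstream start alone the P7 strengths were 66.6, 57.1 and 70.5.

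Within 20 kb of the 10 genes the peaks of all samples formed 167 regions, of which 70 had a peak in every sample. Regions that appeared or disappeared were chosen after their values were seen and are given as descriptions, with no gene assigned. No share of such regions over the whole genome is given here, and the P7 samples listed more peaks than those of P1. Their numbers therefore cannot be read as particular to these genes. There were 9 regions with a peak in every P7 and no P1 sample and 3 with the reverse. One of the latter was at chr2:62425902-62426355, 13.9 kb upstream of the Dpp4 start, with a mean strength of 28.7 at P1 and no peak later. At chr17:29300969-29301635, 17.6 kb upstream of Pi16, a peak was present in every P3, P5 and P7 sample but in none of P1, with mean strengths of 24.9, 27.3 and 55.8. Near Thy1 and S100a4 such regions lay 2.2 and 2.1 kb upstream of the start, with mean strengths of 43.3 and 53.2 at P7 and no peak at P1, and near Cd34 a region 12.9 kb upstream had 37.2 at P7.

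Overexpression of E2f4, a transcription factor of the cell cycle, addressed whether it alters the course of senescence. In these P4 cells Pdgfra, Cd34 and S100a4 rose, and Pdgfrb, Pi16, Ly6a, Vim and Fap fell. Without Pi16, which passed the filter on low counts only through the control, where it was high, that made 7 of 8 tested members, against 57.2% of all genes, and 3 were called, against 18.1% of all genes. Macrophage markers summed to 4.51 to 5.21 CPM with E2f4 and 7.11 to 7.37 CPM in the control, endothelial markers to 9.65 to 9.78 and 4.45 to 5.82 CPM, skeletal muscle markers to 22.6 to 24.0 and 67.1 to 76.8 CPM, and their part in the result was not tested.

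**Figure D3:**
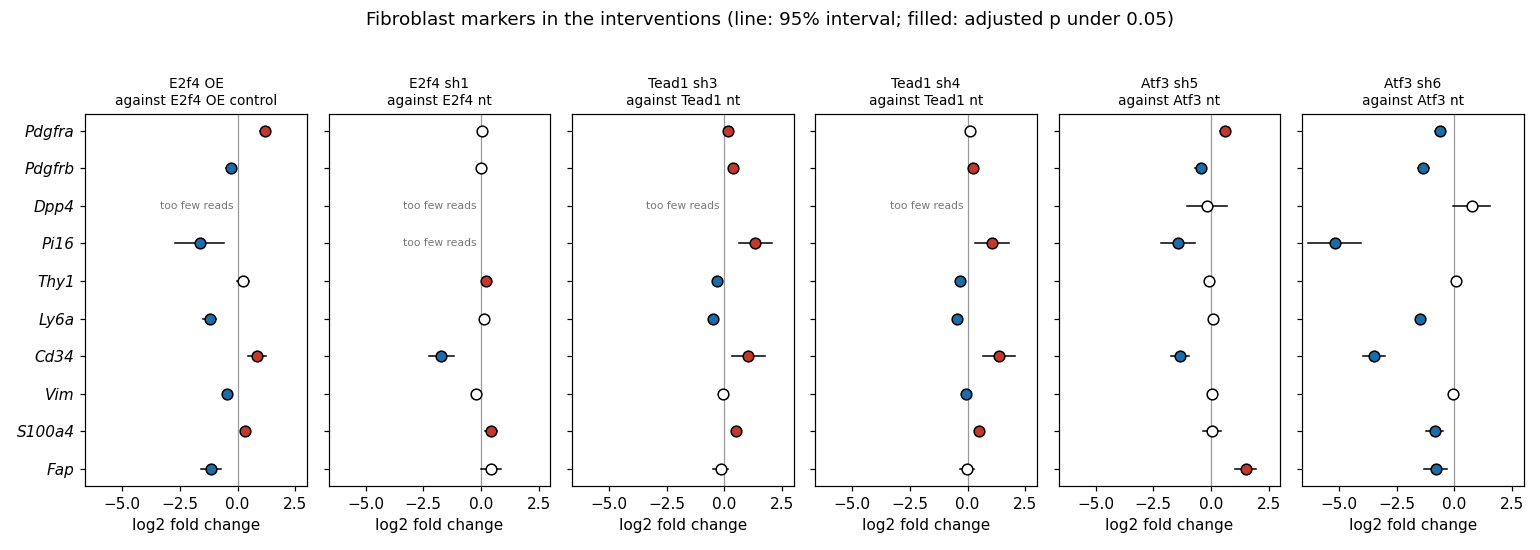
Log2 fold change of each marker in the 6 intervention comparisons (x axis), with a line for the 95% interval of edgeR, points filled red (higher) or blue (lower) where the adjusted p was under 0.05 and open otherwise, and genes with too few reads named as such. The changes with Tead1 hairpins lie close to 0 for the abundant markers, whereas Atf3 sh6 has Pi16 at -5.18 and Cd34 at -3.48.

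Pdgfra was at 249.7 and 253 CPM with E2f4 and 114 and 105 CPM in the control, 1.20 ± 0.10 on the log2 scale (adjusted p = 1.51e-05). Ly6a was at 80.1 and 85.7 CPM with E2f4 and 219 and 163 CPM in the control (-1.21 ± 0.14, adjusted p = 6.2e-05). Both were thus opposite in sign to their difference between P7 and P1. Fap was lower as well, at 3.71 and 2.91 CPM against 8.25 and 6.62 CPM (-1.16 ± 0.22, adjusted p = 0.00104), and Cd34 higher, at 6.32 and 6.54 CPM against 3.53 and 3.69 CPM (0.83 ± 0.20, adjusted p = 0.00431). None of these 4 genes overlapped between the groups. Vim (-0.45 ± 0.09, adjusted p = 0.00128) was lower in both libraries.

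The other members past the test were less certain. With 2 libraries per group, leaving one out leaves a group of 1 library, whose spread is then assumed to be that of the other group. Pi16 (-1.65 ± 0.55, adjusted p = 0.0245) rested on 11 against 29 reads (ratio 0.315, 95% exact interval 0.142 to 0.650), and did not pass when any library was left out (-1.89 to -1.48, adjusted p = 0.067 to 0.185). Pdgfrb (-0.30 ± 0.11, adjusted p = 0.0432) did not pass without control replicate 2 or either E2f4 library (-0.35 to -0.17, adjusted p = 0.103 to 0.260), and S100a4 (0.33 ± 0.11, adjusted p = 0.019) without E2f4 replicate 2 (0.27, adjusted p = 0.203). Thy1 did not pass (0.24 ± 0.13, adjusted p = 0.135), but did without control replicate 2, against the 1 control library left (0.46, adjusted p = 7.26e-06). With all libraries but no filter on low counts, edgeR had Thy1 past the test (0.25, adjusted p = 0.0321) and Pi16 not (-1.65, adjusted p = 0.0574). DESeq2 did not have Pi16 past the test either (-1.71, adjusted p = 0.114). Dpp4 had 2 against 4 reads (ratio 0.416, 95% exact interval 0.0376 to 2.90). In the progenitor list, without Efhd1 for the same reason as Pi16, 8 of 13 tested genes fell (28.2% of all genes) and 4 rose (28.9%), with Cd55 (-2.38 ± 0.17), Wnt2 (-1.71 ± 0.26) and Sema3c (-1.51 ± 0.13) lower, and among reticular genes Mest (4.05 ± 0.14) and Dlk1 (1.14 ± 0.12), both imprinted, were higher.

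With the E2f4 hairpin sh1 fewer markers differed. Cd34 was at 1.53, 1.203 and 1.97 CPM with sh1 and at 4.75, 5.90 and 4.93 CPM with nt, without overlap (-1.72 ± 0.28, adjusted p = 0.00074), and this was the only member called. Cd34 thus fell when E2f4 was lowered in proliferating P3 cells and rose when E2f4 was raised in P4 cells. These experiments had separate controls and differed in the state of the cells. In all, 3 of 8 tested members passed the test, against 17.8% of all genes, and 1 was called, against 1.67%. The others were Thy1 (0.22 ± 0.06, adjusted p = 0.0195) and S100a4 (0.44 ± 0.13, adjusted p = 0.0259), both higher in every sh1 library. Neither passed without nt replicate 1, 2 or 3 (Thy1 0.21 to 0.24, adjusted p = 0.0553 to 0.107, and S100a4 0.43 to 0.46, adjusted p = 0.0779 to 0.103). S100a4 also did not pass with DESeq2 (0.44, adjusted p = 0.175). Pdgfra (0.03 ± 0.07, adjusted p = 0.821) and Pdgfrb (0.00 ± 0.06, adjusted p = 0.984) overlapped between the groups. Vim was lower in every sh1 library but did not pass (-0.22 ± 0.08, adjusted p = 0.0713, and -0.27 with adjusted p = 0.043 without sh1 replicate 1, or -0.29 with adjusted p = 0.0312 without sh1 replicate 2). With no filter on low counts Vim passed in edgeR (-0.22, adjusted p = 0.000725). Endothelial markers summed to 5.91 to 6.56 CPM with sh1 and 6.29 to 11.2 CPM with nt, ranges that overlap, and their part in the fall of Cd34 was not tested.

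Tead1 is a DNA-binding partner of the Hippo pathway effectors. With both hairpins, which share the nt control, S100a4 and Pdgfrb were higher and Thy1 and Ly6a lower, in every library. By the hairpin sequences listed with the paper, sh3 and sh4 target almost the same stretch of Tead1. Their results are therefore not independent of each other. With sh3 5 members rose and 2 fell of 9 tested, against 35.4% of all genes past the test, and 2 were called, against 2.71%. With sh4 4 rose and 3 fell, against 29.1%, and 2 were called, against 1.53%. The called members were Pi16 and Cd34 with both hairpins.

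Ly6a was at 146, 163 and 146 CPM with nt, 111, 102 and 115 CPM with sh3 and 108, 113 and 105 CPM with sh4 (-0.47 ± 0.05 with sh3, adjusted p = 9.82e-09, and -0.48 ± 0.05 with sh4, adjusted p = 1.05e-08). S100a4 was at 591, 527 and 546 CPM with nt, 762.5, 784 and 812 CPM with sh3 and 824, 789.6 and 756 CPM with sh4 (0.50 ± 0.04, adjusted p = 5.05e-11, and 0.51 ± 0.04, adjusted p = 6.29e-11). Neither gene overlapped with its control, and these small changes passed since the libraries of this experiment spread little. Thy1 differed by -0.30 ± 0.04 (adjusted p = 3.88e-08) and -0.34 ± 0.04 (adjusted p = 8.43e-09), and Pdgfrb by 0.36 ± 0.04 (adjusted p = 4.89e-09) and 0.23 ± 0.04 (adjusted p = 2.05e-05). Thy1 and Ly6a were thus lower with Tead1 knockdown and higher with passage, and Pdgfrb was the reverse.

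The progenitor markers Pi16 and Cd34 rose from low levels, whereas Ly6a, a marker of the same population, fell as given above. Pi16 was at 0.635, 0.510 and 0.620 CPM with nt, 1.25, 1.43 and 1.85 CPM with sh3 and 1.08, 1.38 and 1.24 CPM with sh4, with no overlap to nt. Its change was 1.35 ± 0.36 with sh3 (adjusted p = 0.00344, 82 against 32 reads) and 1.05 ± 0.37 with sh4 (adjusted p = 0.0304, 69 against 32 reads), the latter not past the test without nt replicate 1, 2 or 3 or sh4 replicate 2 or 3 (0.96 to 1.11, adjusted p = 0.0573 to 0.097). Cd34 was at 0.693, 0.340 and 1.40 CPM with nt, 1.25, 1.82 and 2.01 CPM with sh3 and 2.27, 2.09 and 2.05 CPM with sh4. It overlapped with nt for sh3 (1.04 ± 0.37, adjusted p = 0.027) but not for sh4 (1.37 ± 0.36, adjusted p = 0.00372). The change with sh3 did not pass without nt replicate 1 or 2 or sh3 replicate 2 or 3 (0.68 to 0.99, adjusted p = 0.0712 to 0.154). Dpp4 had at most 12 reads in a group and was not tested.

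Smaller differences were seen for Pdgfra with sh3 (0.15 ± 0.05, adjusted p = 0.0253), not past the test without nt replicate 3 or sh3 replicate 2 or 3 (0.11 to 0.12, adjusted p = 0.119 to 0.167), and for Vim with sh4 (-0.09 ± 0.03, adjusted p = 0.0389), not past it without nt replicate 2 or 3 or sh4 replicate 1 or 3 (-0.10 to -0.07, adjusted p = 0.0747 to 0.161). Fap did not pass with either (-0.16 ± 0.17, adjusted p = 0.498, and -0.03 ± 0.16, adjusted p = 0.909). In the direct comparison of sh4 with sh3 1 of 9 members passed, Pdgfrb (-0.13 ± 0.04, adjusted p = 0.0273), against 7.37% of all genes, and it did not pass without any of sh3 replicates 2 and 3 and the 3 sh4 libraries (-0.14 to -0.11, adjusted p = 0.0516 to 0.151). Of the 7 myofibroblast genes all fell with sh3 and 6 with sh4, against 17.7 and 14.7% of all genes, with medians of -0.56 and -0.48, none of them called.

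Atf3 codes for a stress-induced factor of the ATF and CREB family that pairs with AP-1 proteins. The hairpins gave different pictures. With sh5 Pdgfra and Fap rose and Pdgfrb, Pi16 and Cd34 fell, 5 of 10 members against 35.9% of all genes, and 3 were called, against 5.20%. With sh6, and without Dpp4, which passed the filter on low counts only through sh6, none of 9 members rose and 7 fell. These were Pdgfra, Pdgfrb, Pi16, Ly6a, Cd34, S100a4 and Fap, against 49.8% of all genes past the test and 26.0% past it and lower. Of the 9 members 4 were called, against 15.7% of all genes. The comparisons share the nt libraries.

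**Figure D4:**
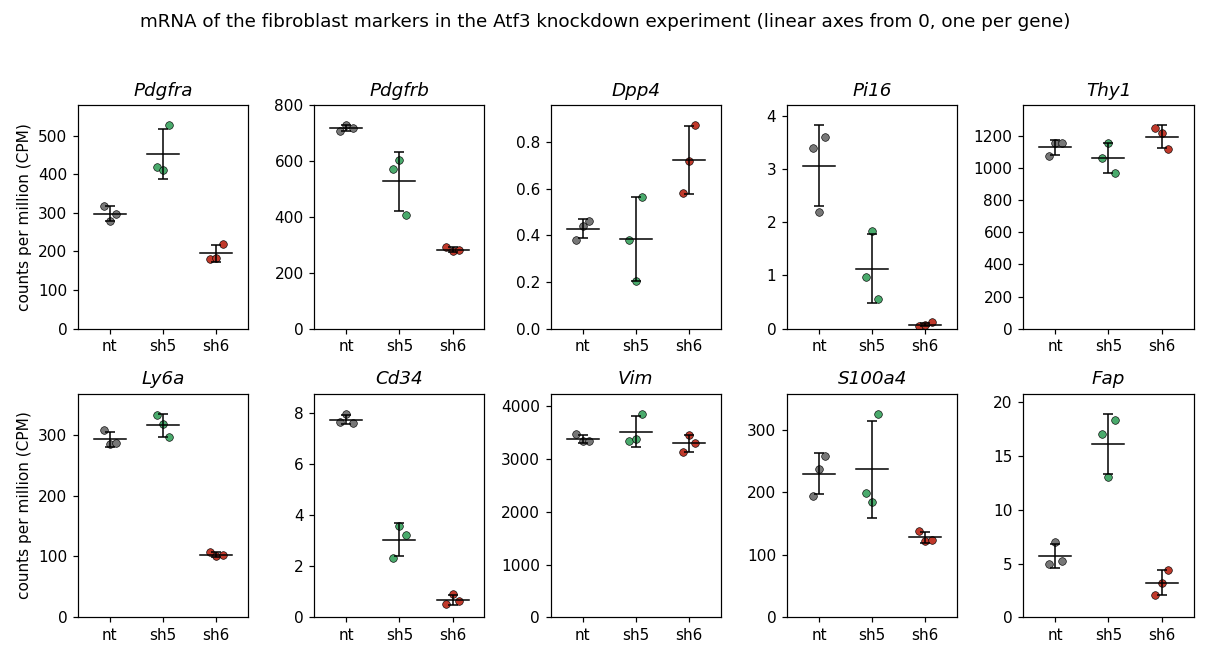
mRNA of the 10 markers in CPM (linear axis from 0, own scale per gene) with the non-targeting hairpin (nt) and the Atf3 hairpins sh5 and sh6, with 1 point per library (n = 3), a bar at the mean and an error bar of 1 SD. Pdgfrb, Pi16 and Cd34 step down from nt over sh5 to sh6, Fap and Pdgfra are highest with sh5, and Thy1 and Vim differ little.

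Cd34 was at 7.63, 7.95 and 7.62 CPM with nt, 2.33, 3.58 and 3.21 CPM with sh5 and 0.523, 0.899 and 0.639 CPM with sh6. The 3 groups did not overlap. It fell with sh5 (-1.34 ± 0.20, adjusted p = 0.00125) and further with sh6 (-3.48 ± 0.24, adjusted p = 1.7e-06), where 35 reads were left against 490 with nt. Pi16 was at 3.39, 2.19 and 3.60 CPM with nt, 0.974, 1.84 and 0.564 CPM with sh5 and 0.0581, 0.0599 and 0.116 CPM with sh6, again without overlap. With sh6 4 reads were left against 198 (ratio 0.0251, 95% exact interval 0.00677 to 0.0653, fitted change -5.18 ± 0.59, adjusted p = 4.4e-05). With sh5 the change was -1.43 ± 0.38 (adjusted p = 0.016), and it did not pass without nt replicate 1 (-1.35, adjusted p = 0.0513) or nt replicate 3 (-1.30, adjusted p = 0.0645). Dpp4, another progenitor marker, did not follow, with 0.581, 0.719 and 0.871 CPM in sh6 and 0.382, 0.439 and 0.462 CPM in nt (0.76 ± 0.41, adjusted p = 0.150, 37 against 27 reads). It passed the filter on low counts only through sh6.

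Pdgfrb was at 708, 727 and 719 CPM with nt, 569.5, 603 and 408 CPM with sh5 and 291, 276 and 282 CPM with sh6, 3 groups without overlap. Its change was -1.34 ± 0.12 with sh6 (adjusted p = 1.07e-05) and -0.45 ± 0.12 with sh5 (adjusted p = 0.0178), the latter not past the test without nt replicate 2 (-0.44, adjusted p = 0.0611) or nt replicate 3 (-0.45, adjusted p = 0.0546). Pdgfra went both ways, with 319, 279.7 and 296 CPM in nt, 418, 411 and 527 CPM in sh5 (0.60 ± 0.11, adjusted p = 0.00379) and 182, 183 and 220.1 CPM in sh6 (-0.61 ± 0.11, adjusted p = 0.00128). The sh5 libraries were all above nt and the sh6 libraries all below.

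Ly6a was at 307, 284.5 and 285.5 CPM with nt and 107, 100.2 and 102 CPM with sh6 (-1.5 ± 0.07, adjusted p = 1.73e-07), and it overlapped with nt in sh5 (0.11 ± 0.07, adjusted p = 0.243, and 0.18 with adjusted p = 0.0206 without sh5 replicate 3). Fap also parted, at 4.92, 6.96 and 5.22 CPM with nt, 17.0, 12.99 and 18.3 CPM with sh5 (1.5 ± 0.24, adjusted p = 0.00169) and 2.09, 3.18 and 4.41 CPM with sh6 (-0.81 ± 0.26, adjusted p = 0.0245). All sh5 values lay above and all sh6 values below nt, but the change with sh6 did not pass without nt replicate 2 or sh6 replicate 1 or 2 (-0.80 to -0.57, adjusted p = 0.0701 to 0.0938). S100a4 was lower with sh6 (-0.85 ± 0.19, adjusted p = 0.00428) and overlapped with nt in sh5. Thy1 and Vim overlapped with nt for both hairpins (Thy1 -0.09 ± 0.08 and 0.08 ± 0.08, adjusted p = 0.407 and 0.420, Vim 0.06 ± 0.07 and -0.04 ± 0.07, adjusted p = 0.560 and 0.687).

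Tested directly, and without Dpp4, which passed the filter on low counts only through sh6, 7 of 9 members were lower with sh6 than with sh5. These were Pi16 (-3.75 ± 0.66), Fap (-2.32 ± 0.26), Cd34 (-2.14 ± 0.26), Ly6a (-1.61 ± 0.07), Pdgfra (-1.21 ± 0.12), Pdgfrb (-0.90 ± 0.12) and S100a4 (-0.89 ± 0.19). Of all genes 52.6% were past this test and 26.6% past it and lower. Dpp4, tested only because of its level with sh6, was higher by 0.92 ± 0.43 (adjusted p = 0.0916, and 1.28 with adjusted p = 0.0494 without sh5 replicate 3). Thy1 was higher by 0.17 ± 0.08 (adjusted p = 0.098, and 0.24 with adjusted p = 0.0385 without sh5 replicate 2). Atf3 itself did not differ beyond its spread between the hairpins (0.35 ± 0.42, adjusted p = 0.504). The skeletal muscle markers summed to 197 to 216 CPM with sh6, 15.3 to 18.4 CPM with sh5 and 38.2 to 39.7 CPM with nt, and the part of such differences was not tested.

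Other fibroblast genes also fell with sh6. Of the progenitor list 9 of 13 tested genes fell (26.0% of all genes) and 2 rose (23.8%), with Limch1 (-3.65 ± 0.28), Cd248 (-2.77 ± 0.24) and the semaphorin Sema3c (-1.92 ± 0.10) among the lowest. Clec3b (-6.15 ± 0.81) is not counted, since it passed the filter on low counts only through nt. Of the matrix list 10 of 15 fell and 2 rose, among them Lum (-2.65 ± 0.17), Col6a3 (-1.87 ± 0.12) and Col1a1 (-1.83 ± 0.21), and all 5 reticular genes fell, led by Dlk1 (-3.46 ± 0.10) and Mgp (-2.99 ± 0.09). By contrast 5 of 7 myofibroblast genes rose, such as Ccn2 (1.73 ± 0.08), tenascin C (Tnc, 1.69 ± 0.08) and Lrrc15 (1.42 ± 0.06), while Postn fell (-1.28 ± 0.09). The medians were -0.92 for the progenitor, -0.92 for the matrix and 1.16 for the myofibroblast list, against -0.02 for all genes. With sh5, again without Clec3b, 7 of 13 progenitor genes fell (18.1% of all genes) and 3 rose (17.7%), with Cd55 at 1.37 ± 0.15.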

How the data were processed

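Skin fibroblasts of C57BL/6 mice had been profiled by RNA-seq (44 count tables) and ATAC-seq (13 peak lists). A further 18 samples of reduced representation bisulfite sequencing were not analysed here. The authors made the deposited counts of reads per gene with Trimmomatic 0.39, HISAT2 2.2.1 against mm10 and HTSeq 0.12.4, without regard to strand. In 28 of these files between 7.50 and 16.8% of the reads stood in rows that name no gene, and these were left out. The ATAC-seq peaks were deposited by the authors per sample, after Bowtie2 2.3.5.1 and MACS2, with fold enrichment (a ratio over background), −log10 p, −log10 q and a display score, and the score was not used.

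Counts were tested with edgeR 4.0.16 (R 4.3.3) in 1 fit per experiment with filterByExpr, TMM factors and the quasi-likelihood test, over 12310 to 13442 genes. CPM were scaled to the total count times the TMM factor. Genes that passed filterByExpr only through the group in which they were high were left out of the counts in the report. Ratios of genes with few reads carry exact 95% intervals, which cover counting error only. Peaks with several summits were merged, peak strength was the percentile of −log10 p among all peaks of the sample, and groups were compared with a two-sided exact permutation test with Benjamini-Hochberg adjustment over 18070 promoters. Alternatives were DESeq2 1.42.0, its size factors, other filters, fewer groups, a replicate block, each library left out, and other peak settings. The scripts were tested on simulated data.

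The 10 members were all named. From each other gene list, up to 4 called genes per comparison with the largest change were named, and for the 4 members with the widest range over the passages the 3 genes most like each, while single markers of other cell types were named to describe their levels. Members, lists and tests were chosen with earlier results of these data known. Groups were taken from the sample labels, and replicates of a group differed by more than counting noise.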

Additional observations from a re-analysis of the deposited data

Results flagged for a closer look

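In 4 of 50 groups of 4 libraries, 1 library stood far from the others for a member, where chance alone gives about 1 in 20. Ly6a in P1 replicate 4 was at 96.6 CPM, with the nearest library at 137 CPM, and S100a4 in P1 replicate 3 was at 829 CPM, with the nearest at 924 CPM. Fap was at 9.53 CPM in P3 replicate 2, where the next library was at 6.80 CPM, and at 5.56 CPM in P7 replicate 4, where the next was at 3.74 CPM. Where leaving out such a library changed whether a member passed the test, the text above gives the result with and without it. Elsewhere only the value with all libraries is given.

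The hairpins against the same gene differed from each other by a direct test (edgeR, adjusted over all genes) for several members. For Atf3, sh6 against sh5 differed by -1.21 for Pdgfra, -0.90 for Pdgfrb, -3.75 for Pi16, -1.61 for Ly6a, -2.14 for Cd34, -0.89 for S100a4 and -2.32 for Fap on the log2 scale, with adjusted p from 1.75e-07 (Ly6a) to 0.00321 (S100a4) and all 3 sh6 libraries below all 3 sh5 libraries for each of them. For Tead1, sh4 against sh3 differed by -0.13 for Pdgfrb (adjusted p = 0.0273).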

How the results depend on the processing

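Of 176 counts of members past a test recomputed under another setting, 153 stayed within 1.5 times the value of the main setting and 23 did not, 19 of them when 1 library was left out. These counts include Dpp4 and Pi16 wherever they were tested, also where they passed the filter only through their high group. The main values are therefore 8 for P3 against P1, 7 for P7 against P1 and 8 for E2f4 overexpression, which differ from the text above. From P5 to P7 DESeq2 gave 2 members (edgeR gave 1) and an edgeR fit of only these groups 0, with 1 member at an unadjusted p under 0.05. Requiring 10 counts in every library left 3 members with Atf3 sh5 (5), since Pi16 and Cd34 were then not tested. Taking the same number of peaks from each sample gave 8 promoters without overlap (5), and peaks weaker than those kept were then at 0. With 1 library left out the counts ranged from 5 to 8 for P3 against P1, 2 to 4 for P5 against P3, 0 to 2 for P7 against P5, 4 to 6 for P7 against P3, 7 to 8 for P7 against P1, 5 to 7 for E2f4 overexpression (8 with all libraries), 1 to 4 for E2f4 sh1, 5 to 7 for Tead1 sh3, 5 to 6 for Tead1 sh4 (7 with all), 0 to 1 for sh4 against sh3, 3 to 6 for Atf3 sh5, 6 to 7 for sh6, 7 to 8 for sh6 against sh5 and 5 to 7 for the promoter peaks.

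Of 1457 values of single members 1327 kept their sign and their side of the threshold, and 31 changed sign. Dpp4 from P5 to P7 became 0.00 with DESeq2 and with its size factors and 0.01 with the replicate block, and with 1 library left out it ranged from -0.46 to 0.30. Pdgfrb with E2f4 sh1 became 0.00 with DESeq2, its size factors or no filter, 0.01 with 10 counts in every library, and -0.02 to 0.05 with 1 library left out. Also with 1 library left out, values lay on both sides of 0 for Pdgfrb (-0.00 to 0.09) and Cd34 (-0.35 to 0.11) from P3 to P5, Vim from P5 to P7 (-0.06 to 0.07), Pdgfra with E2f4 sh1 (-0.03 to 0.07), Fap with Tead1 sh4 (-0.18 to 0.11), Ly6a (-0.06 to 0.03), S100a4 (-0.02 to 0.04) and Fap (-0.03 to 0.27) for sh4 against sh3, Dpp4 (-0.52 to 0.14), Thy1 (-0.15 to 0.00) and S100a4 (-0.23 to 0.19) with Atf3 sh5, and Vim with sh6 (-0.07 to 0.01). The promoter peak of Pdgfra at P7 became higher at its outermost start (2.24) and ranked among promoters (0.769 percentile points, an alternative chosen after seeing the data). The cause of these changes was not tested.

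Replicates with the same number deviated together weakly at most (correlations of -0.262 to 0.276 in the passage series and -0.158 to 0.142 in the interventions). Their mean exceeded that of differently numbered libraries in every experiment but the Atf3 knockdown, with 0.075 against -0.025 in the passage series. The paper names 3 independent series for its methylation samples, but no label ties a number to an animal or culture. The numbers were therefore not taken as pairs in the main fits, and a block was an alternative. With the number as a block all 13 counts stayed within 1.5 times, 3 members passed the test in addition (Thy1 with E2f4 overexpression, 0.26, adjusted p = 0.0179, Vim with E2f4 sh1, -0.23, adjusted p = 0.0196, and Pdgfra from P3 to P7, -0.36, adjusted p = 0.00141), and Dpp4 from P5 to P7 changed sign as given above. For the promoter peaks, differences within the 3 pairs of P1 and P7 samples of the same number (chosen after seeing the data) were below 0 in every pair for 7 members and above 0 in every pair for none, with an exact sign-flip p of 0.25 for each of the 7, the smallest that 8 sign flips can give. Depth limits Dpp4 and Pi16 most, which had under 40 reads per group in many groups, and peak lists without read counts give no depth. Results that passed the test only with all libraries stand in the report.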

Other observations

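For the 4 members with the widest range of passage means, the tested genes with the most similar profile over the 16 passage libraries (Pearson's r of log2 CPM among 13441 genes) are given as a description. The libraries share passage and depth, and the genes were picked as the highest of all. Dpp4 was closest to the zinc transporter gene Slc39a6 (r = 0.965), the lymphatic endothelial transcription factor Prox1 (0.963) and the growth factor Igf2 (0.961). Cd34 was closest to Tmem26 (0.976), Agfg2 (0.971) and Wnt7a (0.965), Ly6a to Copz2 (0.983), Use1 (0.982) and Rnf166 (0.980), and Thy1 to the glutathione transferase Gstm4 (0.989), Lsp1 (0.987) and Txnip (0.987).

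In the peak lists, the covered length of the Dpp4 promoter was already shorter at P5 (391 ± 117 bases) than at P1, while that of the P3 samples varied widely (605 ± 286 bases, n = 3). The fold enrichment of the strongest promoter peak was 6.79 ± 0.729 at P1 and 3.07 ± 0.620 at P7 for Dpp4 and 5.80 ± 1.09 and 3.40 ± 0.722 for Cd34 (SD, n = 4 and 3), with no overlap between the passages for either gene.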
